A study of Mus musculus with 12 samples.

Results

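ADAMTS proteases, secreted metalloproteases with thrombospondin motifs that cut proteins of the extracellular matrix, were followed across arrays of mouse NIH 3T3 fibroblasts. The rule named 8 Adamts genes, and 6 of them, Adamts1, Adamts4, Adamts5, Adamts7, Adamts10 and Adamts12, had a named probe set among the 16475 tested. Adamts2 and Adamts9 had no named probe set in the annotation used and were not analysed here, so nothing is said of their levels. The rule also stated that Adamts1 was higher with the switch ligand in 1 cell line only, so the set was chosen by measured values, the log2 levels of Adamts1 with and without the ligand in both lines. For this reason the ligand responses of all 6 genes, and every value of Adamts1, are given as descriptions without a test.

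The study asked what sustained expression of Ier2, an immediate early gene, does to fibroblasts. Gene expression was read on 12 Affymetrix arrays in 4 groups of 3. NIH 3T3-RheoSwitch-Ier2 cells carried the plasmids pNEBR-Ier2-hygro and pNEBR-R1, which together place Ier2 under a switch opened by the ligand RSL-1 (RSL), and were given 200 nM RSL or the same volume of its solvent DMSO for 24 h. Parental NIH 3T3 cells without the switch received the same treatments. The labels describe the inducible line as clone 11, called the clone here, so a difference between the lines rests on 1 clone, and the switch, the selection of the clone and the line itself cannot be told apart. The growth protocol is the same for all groups and includes G418 and hygromycin. Whether the biological replicates of the labels came from separate cultures is not stated, and p-values cover only the spread from array to array, which may be technical.

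In this family, each protease is made as an inactive precursor. Furin-like convertases trim many of them, and many are held near the cell surface or in the matrix. ADAMTS1, ADAMTS4 and ADAMTS5 cut the large hyaluronan-binding proteoglycans versican and aggrecan, and tissue inhibitors of metalloproteases restrain them. ADAMTS7 and ADAMTS12 form a structural pair that cuts cartilage oligomeric matrix protein, and ADAMTS10 associates with the fibrillin microfibrils of connective tissue.

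The values were log2 expression, with array medians from 7.03 to 7.06 and first quartiles from 6.23 to 6.30. Correlations were 0.9981 to 0.9992 between arrays of 1 group and 0.9913 to 0.9932 between lines. The probe set of Ier2, the gene under the switch, read lower on the clone arrays labelled RSL. It lay between 8.96 and 9.07 on the 3 clone arrays labelled DMSO and between 8.48 and 8.66 on the 3 labelled RSL. The log2 difference was -0.47 (SE 0.05, adjusted p = 4.64e-05 from limma, and 0.148 in the methods' one-way analysis after Benjamini-Hochberg). In parental cells the same difference was 0.17 (adjusted p = 0.366). Parental arrays lay between 8.53 and 8.61 with DMSO and between 8.67 and 8.82 with RSL. Ier2 read higher in the clone than in parental cells by 0.45 under DMSO (adjusted p = 3.24e-06 from limma). Under RSL it read lower, at -0.20 (adjusted p = 0.00533 from limma, and 0.141 in the methods' one-way analysis after Benjamini-Hochberg). By qRT-PCR and Western blot, the paper reports that the ligand raised Ier2 in this clone. The cells read by qRT-PCR had repeated doses of the ligand, each higher than the dose named for the arrays. The blots read protein, which the paper reports to peak earlier than the time point of the arrays and to fall later to basal levels. These measures differ from the arrays in dose, time or molecule, so they cannot be set directly against the array values. Which sequences of Ier2 the probes read is not stated, so this probe set cannot check the labels. Whether it reads Ier2 made from the plasmid, and whether labels were exchanged, was not tested. Arrays of the clone are therefore named by what they are labelled, DMSO or RSL, and both the direction of a ligand response and the size of a line difference under DMSO or RSL, which use the same clone arrays, rest on these labels. Of 9 fibroblast markers, 6 lay at or above the 89.4 percentile of every array, among them Vim and Col1a2, while Thy1 lay between the 53.7 and 61.5 percentiles, Pdgfrb between 55.1 and 68.7 and lumican (Lum) between 4.9 and 9.5. Ptprc, Pecam1 and Epcam, which define leukocytes, endothelium and epithelium, had group means of 5.62 to 6.22, under the first quartile. Other markers of these types were brighter, with Csf1r between the 53.5 and 60.7 percentiles, Cd68 between 27.2 and 46.7, Tie1 between 11.7 and 45.9, Cldn4 between 31 and 37.3 and Kdr between 31 and 36.4.

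Of the 6 genes, only Adamts1 and Adamts12 were matched to a promoter window in the RefSeq table (build GRCm38.p6). Their 250 bases before the transcription start, 5′ to 3′, are shown for this reason alone. A link between the motifs and the levels of the genes was not tested. The Adamts1 window is chr16:85803114-85803363 on the minus strand and the Adamts12 window is chr15:11064523-11064772 on the plus strand. Capitals mark the TATA box letters TATAAA and the GC box letters GGGCGG, searched on both strands.
Adamts1: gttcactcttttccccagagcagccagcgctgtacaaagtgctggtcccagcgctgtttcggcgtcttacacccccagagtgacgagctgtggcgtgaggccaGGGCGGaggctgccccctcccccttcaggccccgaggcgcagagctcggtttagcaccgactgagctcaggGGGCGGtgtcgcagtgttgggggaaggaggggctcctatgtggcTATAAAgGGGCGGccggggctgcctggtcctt
Adamts12: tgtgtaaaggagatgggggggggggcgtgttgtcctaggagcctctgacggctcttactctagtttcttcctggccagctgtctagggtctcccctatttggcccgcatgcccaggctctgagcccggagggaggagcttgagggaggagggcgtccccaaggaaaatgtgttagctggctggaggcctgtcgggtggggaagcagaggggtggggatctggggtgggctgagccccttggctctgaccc
The Adamts1 window held TATAAA once, 32 to 27 bases before the start, and GGGCGG at 3 places, 147 to 142, 76 to 71 and 25 to 20 bases before it, with no overlap between the motifs. Among all 32851 windows, 12.4% held TATAAA and 32.7% held GGGCGG on either strand. The Adamts12 window held neither. The AP-1 letters TGACTCA, the E-box letters CACGTG and the EGR letters GCGGGGGCG, present in 4.5%, 6.0% and 2.6% of windows, were in neither window, and guanine or cytosine made up 65.6% of the Adamts1 window and 63.2% of the Adamts12 window against a median of 52.4%.

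Adamts1, which cuts versican and aggrecan, had a probe set between the 76 and 86.8 percentiles of brightness on its arrays. It read 9.06, 9.02 and 8.99 on the clone arrays labelled DMSO and 9.34, 9.32 and 9.24 on those labelled RSL. In parental cells it read 8.72, 8.72 and 8.60 with DMSO and 8.48, 8.45 and 8.68 with RSL. All 3 clone arrays labelled RSL thus lay above all 3 labelled DMSO, every clone array lay above every parental array, and the parental groups overlapped. The difference between RSL and DMSO was 0.28 (SE 0.05, 1.21-fold) in the clone and -0.14 (SE 0.05) in parental cells, and the difference of these responses was 0.42 (SE 0.07). The parental value was carried by replicates 1 and 2 labelled RSL, since replicate 3 at 8.68 sat among the DMSO arrays. Between lines, the clone exceeded parental cells by 0.34 (SE 0.05, 1.27-fold) under DMSO and by 0.77 (1.7-fold) under RSL. As each array read the RNA of a whole culture, fewer cells with a transcript and less of it per cell cannot be told apart here or in the results that follow.

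Adamts5, the main aggrecan-cutting member of mouse cartilage, had the widest spread between groups of the 6. It read 7.99, 7.99 and 7.95 on the clone arrays labelled DMSO and 8.28, 8.33 and 8.21 on those labelled RSL. Parental cells gave 7.30, 7.35 and 7.33 with DMSO and 7.32, 7.20 and 7.35 with RSL. The order of the groups was the clone under RSL, the clone under DMSO and then both parental groups, which overlapped each other. Adamts5 was higher in the clone than in parental cells by 0.65 under DMSO (SE 0.04, 1.57-fold, adjusted p = 3.34e-09 from limma) and by 0.98 under RSL (1.98-fold, adjusted p = 1.43e-11). Within the clone, the arrays labelled RSL exceeded those labelled DMSO by 0.30 (SE 0.04, 1.23-fold), while the parental difference was -0.04 (SE 0.04). The difference of these responses was 0.33 (SE 0.06).

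Adamts4, the other classical aggrecan-cutting member, showed the opposite order of treatments in the clone. It read 6.90, 6.99 and 6.91 on the clone arrays labelled DMSO and 6.75, 6.82 and 6.83 on those labelled RSL, so the groups did not overlap. The parental arrays gave 6.72, 6.70 and 6.85 with DMSO and 6.67, 6.78 and 6.72 with RSL, overlapping each other and the clone arrays labelled RSL. The difference between RSL and DMSO was -0.14 (SE 0.04) in the clone and -0.03 (SE 0.04) in parental cells. Adamts4 was higher in the clone by 0.18 under DMSO (SE 0.04, 1.13-fold, adjusted p = 0.00472 from limma, and 0.103 in the methods' one-way analysis after Benjamini-Hochberg) but not past the threshold under RSL, at 0.08 (adjusted p = 0.2). That the line difference itself changed with treatment was not tested, because it is the contrast the rule had used.

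Adamts7, which cuts cartilage oligomeric matrix protein, was the member that was lower in the clone. It read 6.82, 6.95 and 6.93 on the clone arrays labelled DMSO and 6.85, 6.76 and 6.86 on those labelled RSL. Parental cells gave 7.29, 7.19 and 7.28 with DMSO and 7.25, 7.19 and 7.28 with RSL. No clone array reached the lowest parental array, whereas the treatments overlapped in both lines. The clone was lower by a log2 difference of -0.35 under DMSO (SE 0.04, adjusted p = 8.79e-06 from limma) and -0.41 under RSL (adjusted p = 1.34e-06). The ligand difference was -0.07 (SE 0.04) in the clone and -0.01 (SE 0.04) in parental cells.

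Adamts12, the structural partner of Adamts7, lay between the 17.9 and 33.9 percentiles of its arrays, and no detection call was used here. It read 6.15, 6.46 and 6.25 on the clone arrays labelled DMSO and 6.28, 6.27 and 6.18 on those labelled RSL. Parental cells gave 6.15, 6.18 and 6.29 with DMSO and 6.22, 6.18 and 6.28 with RSL. All 4 groups overlapped, and replicate 2 of the clone arrays labelled DMSO was the highest of the 12. The line difference was 0.08 under DMSO (SE 0.06, adjusted p = 0.413 from limma) and 0.01 under RSL (adjusted p = 0.884). Leaving out that array took the DMSO value to -0.01, the lowest of the values obtained on leaving out each array.

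Adamts10, the microfibril-associated member, gave small differences with little spread. It read 6.99, 7.05 and 7.08 on the clone arrays labelled DMSO and 7.07, 7.07 and 7.14 on those labelled RSL. Parental cells gave 6.92, 6.88 and 6.92 with DMSO and 6.92, 6.91 and 6.996 with RSL. Within each treatment every clone array lay above every parental array, and the treatments overlapped in both lines. Adamts10 was higher in the clone by 0.13 under DMSO (SE 0.04, 1.1-fold, adjusted p = 0.00916 from limma) and by 0.15 under RSL (adjusted p = 0.00372, and 0.0602 in the methods' one-way analysis after Benjamini-Hochberg). The ligand difference was 0.05 (SE 0.04) in the clone and 0.04 (SE 0.04) in parental cells.

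**Figure D1:**
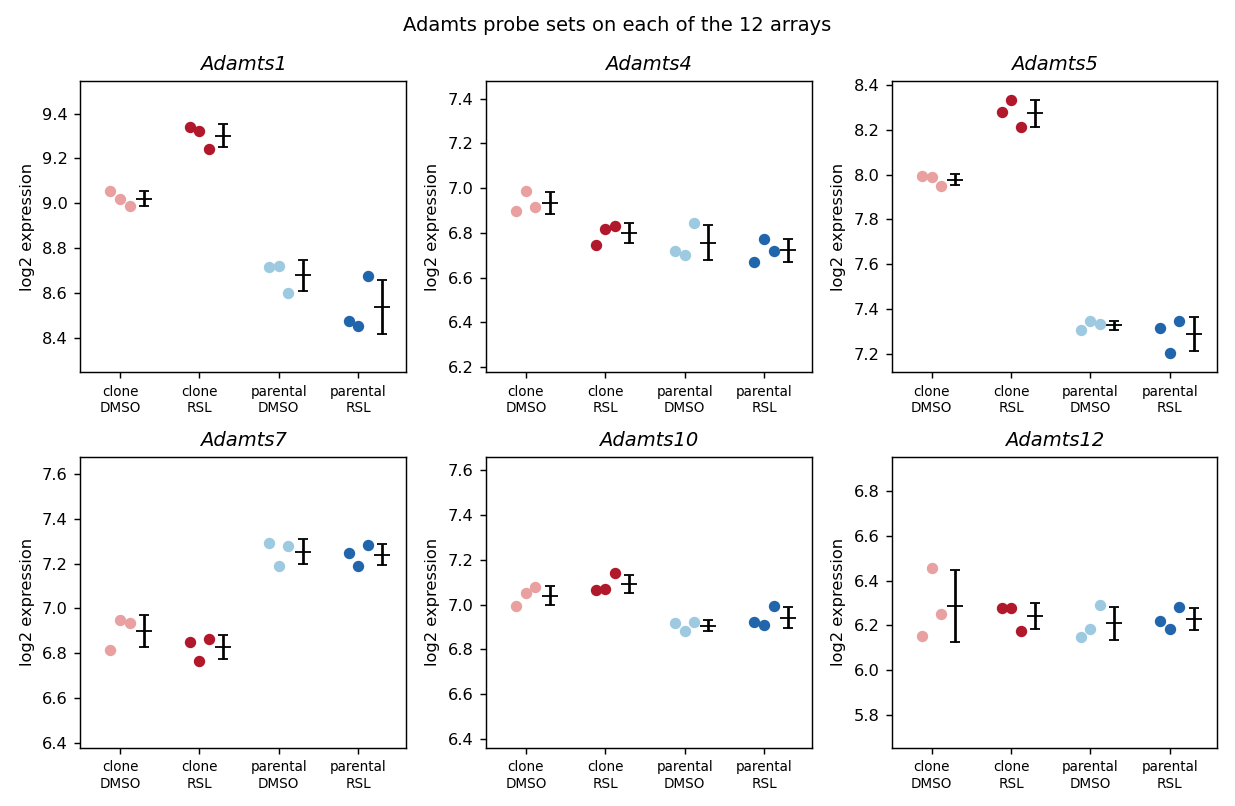
Log2 expression of each of the 6 Adamts probe sets (vertical axes, all with the same span) on each of the 12 arrays, by group; points are arrays and the black marks are the mean ± SD of 3 arrays. The clone arrays labelled RSL sit above all others for Adamts1 and Adamts5, the clone sits below parental cells for Adamts7, and the 4 groups overlap for Adamts12.

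Counted over the members, 4 of the 5 tested genes differed between lines under DMSO, Adamts4, Adamts5 and Adamts10 higher and Adamts7 lower in the clone. Of all probe sets, 29.7% passed the same test, 15.2% higher and 14.5% lower, so a difference between these lines was common. Under RSL, 3 of the 5 passed, Adamts5 and Adamts10 higher and Adamts7 lower, beside 34.2% of all probe sets, 17.5% higher and 16.8% lower. Of the 5 tested genes, the lines did not overlap for the same 4 under DMSO, beside 40.2% of all probe sets. Under RSL they did not overlap for the same 3, beside 44.5%. The lines did not overlap for Adamts1 either, which is not counted because the rule had used its values. The treatments did not overlap for 3 of the 6 genes in the clone, beside 18.1% of all probe sets, a count from which nothing is read because the rule had used this contrast. In parental cells they overlapped for all 6, beside 13.3% of probe sets that did not overlap. Over all probe sets, 418 (2.54%) passed for the ligand in the clone, 5 (0.0303%) in parental cells and 109 (0.662%) for the difference of the responses. The comparisons share arrays, the clone arrays labelled DMSO among them, so their values for a gene are not independent of each other.

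**Figure D2:**
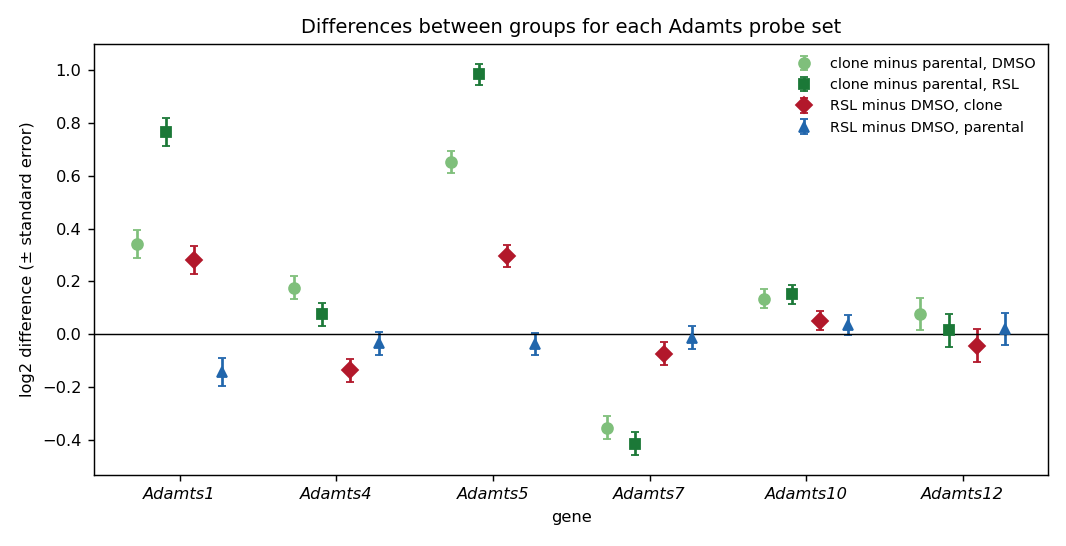
Log2 difference ± SE (vertical axis) of each of the 6 genes in 4 comparisons: the clone minus parental cells under DMSO and under RSL, and RSL minus DMSO in the clone and in parental cells, from 3 arrays a group. Adamts5 has the highest line differences, 0.65 and 0.98, Adamts7 is below 0 in both, and the parental ligand differences lie between -0.14 and 0.04.

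Adamts1 and Adamts5 followed each other across the arrays. Their log2 values correlated at r = 0.97 (Spearman's rho = 0.94) over the 12 arrays, and at 0.88 after the mean of each line was subtracted, both given as descriptions since the arrays share the difference between lines and the ligand contrast of the rule. Adamts5 stood at place 6 of 15779 named probe sets in likeness to Adamts1, and at place 20 after subtraction. In likeness to Adamts5, Adamts1 stood at place 116 and, after subtraction, at place 71. Adamts4 correlated with Adamts1 at 0.42, and at -0.63 after subtraction of the line means. Adamts7 ran against Adamts1 at -0.91 and against Adamts5 at -0.96, against -0.34 and -0.47 after subtraction of the line means.

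**Figure D3:**
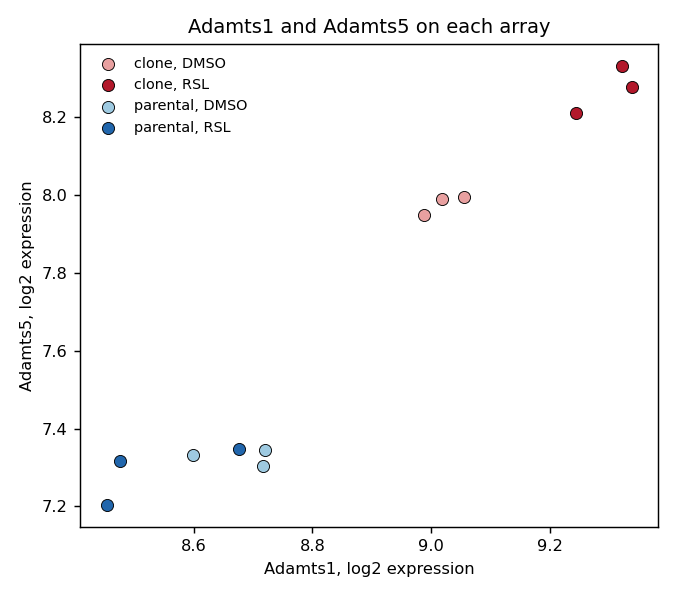
Log2 expression of Adamts1 (horizontal axis) against Adamts5 (vertical axis) on each of the 12 arrays, coloured by group. The clone arrays labelled RSL, the clone arrays labelled DMSO and the parental arrays form 3 separate sets, with Adamts1 between 8.45 and 9.34 and Adamts5 between 7.20 and 8.33.

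The 5 probe sets most like Adamts1 over the 12 arrays were Tubg1, a gamma-tubulin (r = 0.979), Deptor, an inhibitor of mTOR kinase (0.979), the zinc-finger gene Tshz1 (0.978), the fibrillar collagen gene Col27a1 (0.977) and Pcyox1 (0.976). Deptor differed between RSL and DMSO by 0.43 in the clone and -0.08 in parental cells. With line means subtracted, the 5 were Osr2 (0.933), Cbx6 (0.924), Trim30a (0.92), Col27a1 (0.917) and Inmt (0.911). Col27a1 was in both sets, with a ligand difference of 0.14 in the clone and -0.06 in parental cells. For Adamts5 the 3 nearest were the cytokine genes Ccl9 (0.996) and Il6 (0.995) and the pentraxin gene Ptx3 (0.995), each higher in the clone than in parental cells under DMSO by 0.45, 0.87 and 1.88. Adcy1, Fzd5 and Dnm1 followed Adamts7 at 0.986 to 0.988, and Pbxip1, Cetn1 and Il13ra2 followed Adamts10 at 0.956 to 0.967. The likeness was lower for Adamts4, with Usp9x, Zbtb37 and Trappc4 at 0.89 to 0.894, and for Adamts12, with Tceanc, Prf1 and Zfp949 at 0.784 to 0.807. These values are over 12 arrays that share the line difference.

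Adamts1 and Adamts5 lie next to each other on chromosome 16, with 0 annotated protein-coding genes between them in GRCm38.p6, whereas Adamts4, Adamts7, Adamts10 and Adamts12 lie on chromosomes 1, 9, 17 and 15. The 3 protein-coding genes on each side were read because of this position, after the values of Adamts1 and Adamts5 were known. In the clone, 0 of these 6 genes passed the limma test for the ligand, beside 2.54% of all probe sets, with differences from -0.02 (Cyyr1) to 0.10 (Rwdd2b, adjusted p = 0.483). Between lines under DMSO 4 of the 6 passed, beside 29.7% of all probe sets, each of them higher in the clone. App, the amyloid precursor gene, was higher by 0.25 (adjusted p = 1.36e-05), the methyltransferase gene N6amt1 by 0.29 (adjusted p = 0.000518, and 0.0759 in the methods' one-way analysis), the transcription factor gene Gabpa by 0.16 (adjusted p = 0.00402) and the ubiquitin ligase gene Ltn1 by 0.16 (adjusted p = 0.000932). The median line difference over the 510 named genes of chromosome 16 was 0.032, beside -0.01 over all probe sets. It was the highest of 21 chromosomes but close to those of chromosomes 11 (0.026), 9 (0.024) and 4 (0.023).

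**Figure D4:**
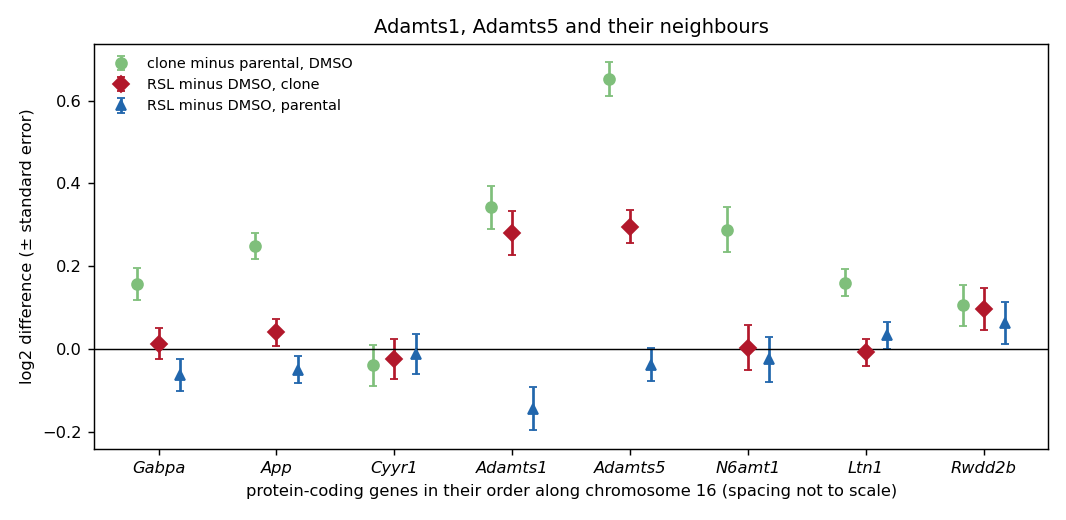
Log2 difference ± SE (vertical axis) for Adamts1, Adamts5 and the 3 protein-coding genes on each side of them, in their order along chromosome 16 (horizontal axis, spacing not to scale), for 3 comparisons of 3 arrays a group. In the clone the ligand difference is 0.28 and 0.30 at the pair and between -0.02 and 0.10 at the 6 flanking genes.

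The rest of the family and the pathway around it were read from lists of related genes. Of 11 other Adamts genes, Adamts8, Adamts15, Adamts16 and Adamts18 were measured, and 0 of them passed for the line under DMSO or for the ligand in either line. Under RSL, Adamts16 at -0.11 (adjusted p = 0.0381 from limma) and Adamts18 at -0.16 (adjusted p = 0.0448) were lower in the clone. The Adamts16 call was lost without clone RSL replicate 1 or 2 or parental RSL replicate 1 or 3, with adjusted p up to 0.215, and the Adamts18 call without clone DMSO replicate 1, any clone RSL replicate, parental DMSO replicate 3 or parental RSL replicate 1, with adjusted p up to 0.256. Of 7 ADAMTS-like genes, which encode relatives without the protease domain, Adamtsl5 was higher in the clone under DMSO by 0.25 (SE 0.03, adjusted p = 1.7e-05) and Adamtsl4 lower at -0.24 (SE 0.04, adjusted p = 0.000388), and 0 passed for the ligand. Of 10 ADAM genes, the membrane-anchored relatives, 2 were higher and 3 lower in the clone under DMSO, beside 15.2% and 14.5% of all probe sets, with Adam12 at -0.40 (adjusted p = 5.36e-06) and Adam23 at -0.37 (adjusted p = 1.86e-07). The calls of both higher ones rested on single arrays. Adam10 at 0.17 (adjusted p = 0.0464) was lost without clone DMSO replicate 1 or 3, clone RSL replicate 1 or 2, any parental DMSO replicate or parental RSL replicate 1, and Adam22 at 0.15 (adjusted p = 0.0278) without clone DMSO replicate 2 or 3 or parental DMSO replicate 2, with adjusted p up to 0.232 and 0.138. Adam19 was lower in the clone arrays labelled RSL by a log2 difference of -0.17 (adjusted p = 0.027), a call lost on leaving out any 1 of the 6 clone arrays, with adjusted p from 0.0542 to 0.117.

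The hyaluronan matrix, which holds the substrates of Adamts1, Adamts4 and Adamts5, was measured through 15 genes. Under DMSO 2 were higher and 1 lower in the clone, beside 15.2% and 14.5% of all probe sets, the second of the higher ones, Cd44, by 0.11 (adjusted p = 0.0196), a call lost without clone DMSO replicate 1 or 2 or parental DMSO replicate 1 or 3, with adjusted p up to 0.0935. Has2, the main hyaluronan synthase of fibroblasts, was higher by 0.69 (SE 0.04, adjusted p = 3.02e-10 from limma), and the link protein gene Hapln4 was lower at -0.57 (SE 0.05, adjusted p = 1.26e-07). With the ligand in the clone, where 2.54% of all probe sets passed, 0 of the 15 were higher and 2 were lower. Has2 lay between 8.41 and 8.50 on the clone arrays labelled DMSO and between 8.24 and 8.29 on those labelled RSL, and Cd44, a hyaluronan receptor, lay between 11.05 and 11.13 and between 10.81 and 10.88. Has2 fell by 0.19 (SE 0.04, adjusted p = 0.00853, and 0.064 without clone DMSO replicate 1) and Cd44 fell by 0.25 (SE 0.03, adjusted p = 0.000371). Neither call held in the methods' one-way analysis after Benjamini-Hochberg, at adjusted p = 0.166 for Has2 and 0.145 for Cd44. The difference of the ligand responses between lines did not pass for Has2 at -0.21 (adjusted p = 0.0874) or Cd44 at -0.16 (adjusted p = 0.175). Vcan, the gene of versican, was at -0.12 (SE 0.04, adjusted p = 0.121) in the clone and -0.14 (adjusted p = 0.301) in parental cells. The list's median ligand difference in the clone was -0.004, beside 0.003 over all probe sets.

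Among 15 genes of procollagen processing, 8 were higher and 3 lower in the clone under DMSO, beside 15.2% and 14.5% of all probe sets, with a list median of 0.26 beside -0.01 over all probe sets. Col5a2 was higher by 0.76 (SE 0.03, adjusted p = 1.39e-11 from limma), Col1a1 by 0.73 (SE 0.06, adjusted p = 1.23e-07), Col5a1 by 0.43 (SE 0.04), and Lox, the collagen crosslinking enzyme gene, by 0.32 (SE 0.03). Bmp1, the gene of a procollagen C-proteinase, was lower at -0.28 (SE 0.04, adjusted p = 2.64e-05). For the ligand in the clone 0 of the 15 passed, with Plod2, a collagen lysyl hydroxylase gene, at 0.14 (adjusted p = 0.0587), Lox at 0.11 (adjusted p = 0.066) and Col5a2 at 0.11 (adjusted p = 0.0704).

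Of 20 genes of microfibrils and other matrix substrates, 18 were measured, and 7 were higher and 5 lower in the clone under DMSO, beside 15.2% and 14.5% of all probe sets. Thbs1, the gene of thrombospondin 1, lay between 9.85 and 10.10 on the clone arrays labelled DMSO and between 7.28 and 7.46 on the parental ones, a difference of 2.65 (SE 0.07, adjusted p = 9.6e-14 from limma). The latent TGF-beta binding protein genes Ltbp2 and Ltbp1 were lower in the clone at -1.05 (adjusted p = 3.98e-13) and -0.70 (adjusted p = 3.82e-09), and the microfibril gene Mfap5 was higher by 0.36 (SE 0.03). In the clone arrays labelled RSL, Ltbp2 rose by 0.20 (SE 0.03, adjusted p = 0.00289) and Ltbp1 fell by 0.20 (SE 0.04, adjusted p = 0.021). Parental cells gave 0.06 for Ltbp2 (adjusted p = 0.544 from limma) and -0.15 for Ltbp1 (adjusted p = 0.366). The difference of the ligand responses passed for neither, at 0.13 for Ltbp2 (adjusted p = 0.302 from limma) and -0.05 for Ltbp1 (adjusted p = 0.871). The Ltbp1 call was lost without clone DMSO replicate 1 or 2 or clone RSL replicate 1 or 3, with adjusted p up to 0.117. In the methods' one-way analysis after Benjamini-Hochberg neither passed, at adjusted p = 0.147 for Ltbp2 and 0.321 for Ltbp1.

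Of 16 genes of inhibitors, activators and uptake, 4 were higher and 2 lower in the clone under DMSO, together a share near the 29.7% of all probe sets that passed. Timp1, a metalloprotease inhibitor gene, was higher by 0.31 (SE 0.04, adjusted p = 1.09e-05 from limma), Reck, a membrane-anchored inhibitor gene, by 0.33 (SE 0.04, adjusted p = 6.92e-06) and the heparan sulfate proteoglycan gene Sdc4 by 0.34 (SE 0.04, adjusted p = 7.41e-06). Timp3, the gene of the tissue inhibitor that acts on ADAMTS4 and ADAMTS5, lay between the 16.1 and 23.6 percentiles of its arrays. Pofut2 and B3glct, which add the sugars that thrombospondin repeats need for secretion, were lower in the clone under DMSO at -0.19 (adjusted p = 0.00366) and -0.16 (adjusted p = 0.00161). Under RSL 4 of the 16 were higher and 5 lower in the clone, beside 17.5% and 16.8% of all probe sets. Timp1 was higher by 0.17 (adjusted p = 0.00231 from limma), and Timp2 was lower at -0.13 (adjusted p = 0.0051). Timp3 was lower at -0.09 (adjusted p = 0.0331), but did not pass under DMSO (adjusted p = 0.154). Its call under RSL was lost on leaving out some single arrays, with adjusted p up to 0.146. In the clone 1 gene passed for the ligand, Lrp1, the receptor that takes up ADAMTS4 and ADAMTS5, which fell by 0.28 (SE 0.07, adjusted p = 0.0376). This call was lost without clone DMSO replicate 1 or 2, any clone RSL replicate or parental RSL replicate 1, with adjusted p from 0.0528 to 0.168, and without clone DMSO replicate 1 the difference itself was -0.18. In parental cells, and for the difference of the ligand responses, 0 genes passed in any of the 7 lists.

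**Figure D5:**
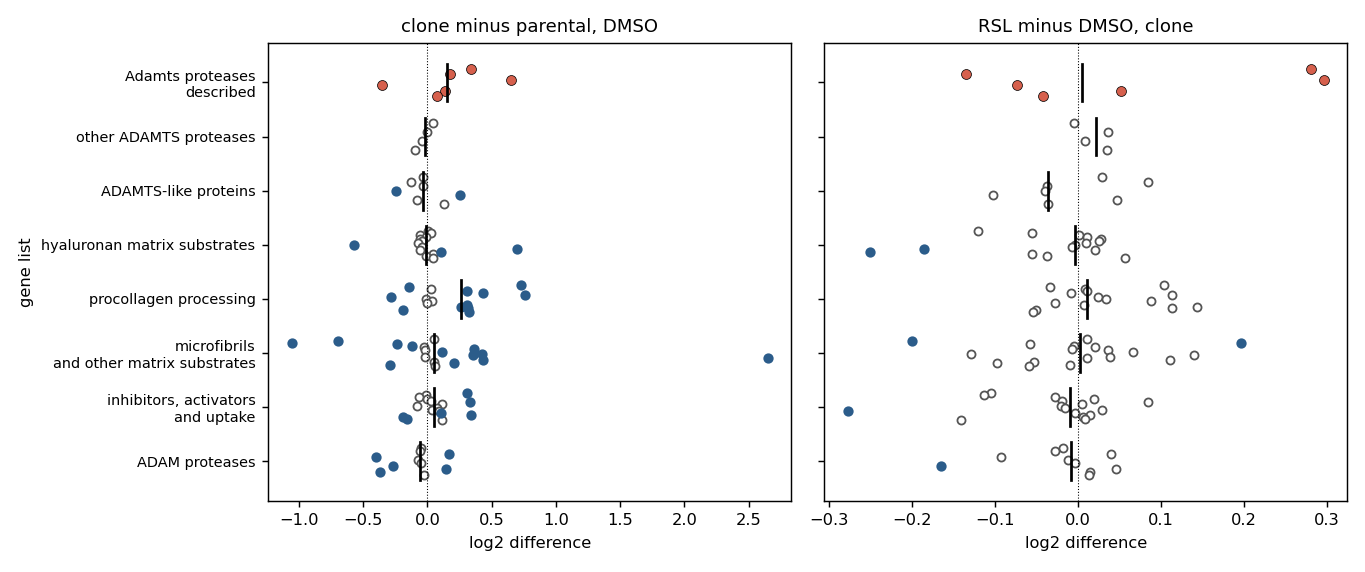
Log2 difference (horizontal axes, not on the same scale) of each measured gene in the 6 described Adamts genes (red, not marked for a test) and the 7 lists of related genes (vertical axis), between lines under DMSO on the left and for the ligand in the clone on the right. Filled blue points passed the limma test at an adjusted p under 0.05, open points did not, and black bars are list medians; in the right panel the list medians lie between -0.04 and 0.02.

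Markers of other cell types were read beside these comparisons. For the ligand, 0 of 6 endothelial, 0 of 5 epithelial and 0 of 5 macrophage genes passed in either line. Between lines under DMSO, Tie1 was higher in the clone by 0.73 (adjusted p = 5.24e-08 from limma) and Vwf lower at -0.09 (adjusted p = 0.0482, lost on leaving out any array but parental DMSO replicate 3), Cdh1 was higher by 0.17 (adjusted p = 0.0043), and Cd68 was higher by 0.40 (adjusted p = 3.9e-06) and Csf1r lower at -0.20 (adjusted p = 0.00115). On the linear scale the summed level of the endothelial genes was 439 to 455 in the clone and 401 to 428 in parental cells under DMSO. For the epithelial genes it was 358 to 372 and 347 to 365, and for the macrophage genes 447 to 463 and 443 to 459. Many of these genes were dim, with Pecam1, Cdh5, Tek and Vwf at or below the 24.7 percentile, so the sums may hold much background. The part of these cell types in the line differences of the Adamts genes was not tested.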

How the data were processed

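RNA was hybridised to 12 Affymetrix Mm430_2.0 arrays, 3 per group; the labels name Trizol for RNA extraction and the methods RNAPure peqGOLD. The authors deposited 1 table of log2 values, after RMA background correction and quantile normalization, in which version 10 of a Custom CDF grouped probes by Entrez gene. The base of the logarithm was inferred from the span of the values. The summary of probes into 1 value per gene is not given in the sources used. The study's own one-way analysis was run in SAS JMP10 Genomics (version 4). The table has 0 columns of other samples, and its replicates, named by number in the labels, were all kept.

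Of 16539 probe sets, 64 hybridization controls were left out and 16475 were tested without a filter. In the annotation given for them, 15780 have 1 gene symbol; the other 695 were counted but not named. From the deposited log2 values, 4 group means were fitted in limma 3.58.1 (R 4.3.3) with 8 residual degrees of freedom and moderated variances. The comparisons were the clone against parental cells under DMSO and under RSL, RSL against DMSO in each line, and the difference of these responses. P-values were adjusted by Benjamini-Hochberg over all probe sets and called under 0.05; the Adamts genes were tested only between lines, and Adamts1 in none. With 3 arrays against 3, an exact permutation test could not go below 0.1. Arrays give no molecule counts, so precision rests on their number.

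The genes and lists were chosen with earlier results of these data known. Named were the Adamts genes, Ier2, up to 4 genes of each list with the smallest p for the ligand in the clone and for the line under DMSO, list genes past the test, and the probe sets with the highest Pearson r to each Adamts gene. Timp3, the flanking genes, the cell type markers and the medians by chromosome were named after values were seen. As alternatives the fit was repeated with a replicate block, without the dimmest 40% of probe sets, with an intensity trend, array weights and array medians subtracted. Further alternatives were a repeated quantile normalization, only the 6 arrays compared, the methods' one-way analysis, and leaving out each array. The one-way analysis used the 6 arrays of each comparison. It was read at a nominal p, as in the methods, and after Benjamini-Hochberg. Simulated data for the line comparison under DMSO had 16475 probe sets, independent normal noise and 50 changed probe sets at each size. Of changes of 0.2, 74% were recovered, of 0.3 90% and of 0.5 and 1 100%, with 12 false calls among 194. Far more probe sets, 29.7%, passed in the data themselves, so these rates need not hold for them. Promoter sequences and gene order are from RefSeq, GRCm38.p6.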

Additional observations from a re-analysis of the deposited data

Results flagged for a closer look

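Ier2 differed in its ligand response between the lines by a test of the difference itself. The log2 difference of the responses, the clone minus parental cells, was -0.64 (SE 0.07, adjusted p = 0.000262 from limma), with -0.47 in the clone and 0.17 in parental cells. All 3 clone arrays labelled RSL, at 8.50, 8.48 and 8.66, lay below all 3 labelled DMSO, at 9.07, 9.04 and 8.96. No source used here states which sequences of Ier2 the probes read. Il6, one of the probe sets nearest to Adamts5, was at 0.33 for RSL minus DMSO in the clone and at 0.00 in parental cells. It was picked for its likeness to Adamts5 over these same arrays, so this pattern follows from the choice and is no check of the labels. Groups of 3 arrays are too small for a test of single outlying arrays.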

How the results depend on the processing

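No named result reversed its direction while past the threshold under any alternative. Of 607 values of the 6 Adamts genes under an alternative, 605 stayed on their side of the threshold or, where untested, moved by less than the replicate spread. Adamts12, which did not pass, is among them, though leaving out 1 array took its line difference to -0.01 under DMSO and under RSL. The other 2 lost their call, both under the methods' one-way analysis after Benjamini-Hochberg: Adamts4 between lines under DMSO (adjusted p = 0.103) and Adamts10 under RSL (adjusted p = 0.0602). That analysis also ended every named ligand call in the clone, at 0.145 (Cd44) to 0.467 (Lrp1), and, between lines under DMSO, those of Cd44, Adam10, Adam22, Cdh1 and N6amt1, at 0.0673 to 0.174. Among the other named genes 4174 of 4331 values stayed on their side, 112 lost and 45 gained a call. Leaving out each array, 4 Adamts genes passed between lines under DMSO and 3 under RSL every time, with adjusted p of 0.00116 to 0.0325 for Adamts4 under DMSO, 0.00734 to 0.0458 for Adamts10 under DMSO and 0.00237 to 0.0206 for Adamts10 under RSL.

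Counts over all probe sets moved more, and the cause was not tested. Between lines under RSL the one-way analysis after Benjamini-Hochberg gave 3480. For the ligand in the clone it gave 1 (nominal p: 1913) and array weights 736. For the ligand in parental cells the counts were 8 with the filter, 10 with the intensity trend, 106 with array weights, 8 after repeated quantile normalization, 2 with the 6 arrays alone and 0 in the one-way analysis (nominal p: 1226). Array weights gave 375 for the difference of the responses. Leaving out 1 array gave 4132 to 4980 and 4707 to 5924 between lines under DMSO and RSL, 204 to 457 for the ligand in the clone, 1 to 12 in parental cells and 56 to 144 for the difference. The clone count of 418 dropped most without clone DMSO replicate 1 (204), clone DMSO replicate 2 (213) or clone RSL replicate 1 (227), and the count of 109 for the difference without clone DMSO replicate 1 or 2 (56 each), clone RSL replicate 2 (58) or 1 (72), parental DMSO replicate 2 (60) or 3 (70) or parental RSL replicate 1 (71). In parental cells the count of 5 was 3 or fewer without any of 8 arrays, clone DMSO replicate 1 or 3, clone RSL replicate 1, parental DMSO replicate 2 or 3 and each parental RSL replicate, and 8 and 12 without clone RSL replicates 2 and 3.

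Whether equal replicate numbers pair the samples is not stated. Same-numbered arrays of different groups correlated at -0.296 to 0.214 in their deviations from the group means. Of 12 pairs, 3 were above 0.1, and 3 were best with their own number. With 3 arrays a group these values cannot settle the question. With the replicate block the counts were 4604 and 5314 between lines under DMSO and RSL, 330 for the ligand in the clone, 4 in parental cells and 76 for the difference, and 4 and 3 Adamts genes passed between lines. The block ended the calls of Adam10 (adjusted p = 0.0672) and Vwf (0.0652) between lines under DMSO, of Adamts16 (0.0534) and Timp3 (0.0523) under RSL, and of Adam19 (0.0563) and Lrp1 (0.0591) for the ligand in the clone. Dim probe sets such as Adamts12 limit what could be seen.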
